A study of Homo sapiens with 12 samples.

Results

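The genes described here are the receptor subunits of the interleukin 6 (IL6) family, IL6R, IL6ST, OSMR and LIFR, the Janus kinases JAK1, JAK2 and TYK2, the transcription factor STAT3, and the feedback inhibitors SOCS3 and CISH. They were taken by name, 10 of the 56832 genes in the count files, and all 10 were among the 14549 genes with enough counts to be tested. They were measured by RNA sequencing in MDA-MB-468, a human breast cancer cell line of the basal-like type. The 12 libraries form 4 groups of 3: cells with stable expression of thyroid hormone receptor beta (TRB) from a pCDH vector given the thyroid hormone T3 at 10 nM, the same TRB cells given vehicle (NaOH), cells with the empty pCDH vector (EV) given T3 at 10 nM, and EV cells given vehicle. All cells were first kept in hormone-depleted medium, and treatment lasted 24 hours. The labels show 1 stable line per vector and name no clones, so TRB against EV always compares those 2 lines. The sources used here do not name the promoter that drives TRB. Nor do the labels state that the 3 libraries per group were separate cultures; p-values therefore reflect only the spread among these libraries, which may be technical.

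Cytokines of the IL6 family signal through the shared receptor subunit gp130, the product of IL6ST. IL6 first binds its own receptor, IL6R, while leukemia inhibitory factor and oncostatin M pair gp130 with LIFR or OSMR. The assembled receptors activate JAK1, JAK2 and TYK2, which phosphorylate STAT3; phosphorylated STAT3 enters the nucleus and induces target genes, among them SOCS3, whose product binds gp130 and shuts the signal down. CISH is a related inhibitor that is best known as a target of STAT5. In breast cancer the pathway is studied for its part in growth, survival and inflammation. RNA counts measure the transcripts of these genes and not the phosphorylation through which the pathway signals.

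Gene counts came to between 4241863 and 11955825 per library, and the least deep T3 library, with 10323437, exceeded the deepest vehicle library, with 8904361. THRB, the gene that encodes TRB, ranged from 311 to 344 CPM (counts scaled to library size with TMM factors) in TRB T3 libraries, 136 to 144 CPM in TRB vehicle libraries, 37.7 to 39.9 CPM in EV T3 libraries and 42.6 to 44.2 CPM in EV vehicle libraries, and so followed the vector labels. The 2 mitochondrial ribosomal RNAs took 0.0578% to 0.09% of gene counts in TRB T3 libraries and 0.707% to 1.8% in TRB vehicle libraries, and 0.0502% to 0.0667% in EV T3 libraries and 0.326% to 2.68% in EV vehicle libraries. The part of this difference between T3 and vehicle libraries in the results below was not tested. The 6 markers of basal breast epithelium, all tested, summed to 4625 to 4808 CPM in TRB T3, 5800 to 5827 CPM in TRB vehicle, 6697 to 7256 CPM in EV T3 and 7224 to 7537 CPM in EV vehicle libraries, and 5 of them fell with T3 in TRB cells. Most of each basal sum was EGFR, whose mean in TRB cells went from 4421 CPM under vehicle to 4274 CPM under T3. The sums therefore understate the fall of the other basal markers. Between the same groups, mean CPM went from 900 to 224 for KRT5 and from 373 to 122.5 for KRT17. It went from 29 to 11.7 for KRT14, from 7.35 to 1.75 for KRT6A and from 87 to 66.2 for FOXC1. The median log2 fold change of the 6 was -1.46. The 4 general epithelial markers summed to at least 2714 CPM in every library. The part of the shift in basal markers in the results was not tested. Of 6 leukocyte markers, CD14 alone had enough counts to be tested; PTPRC, which encodes the leukocyte marker CD45, had 24 counts over all 12 libraries, CD68 had 6, CD3E had 2 and LYZ had 0. Of 5 fibroblast markers only COL1A1 was tested, PDGFRB had 7 counts and COL1A2, DCN and LUM had 0; the list summed to 19.7 to 21.4 CPM in TRB T3, 16.4 to 17.9 CPM in TRB vehicle, 14.6 to 15.4 CPM in EV T3 and 15.7 to 16.4 CPM in EV vehicle libraries. The 3 endothelial markers, 2 of them tested, summed to 5.94 to 6.47 CPM in TRB T3, 1.71 to 2.13 CPM in TRB vehicle, 2.09 to 3.57 CPM in EV T3 and 1.93 to 2.04 CPM in EV vehicle libraries.

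Levels of different genes can be set side by side only per length of exon, here the merged exons of GENCODE release 29. In EV vehicle libraries TYK2 was highest at 65.6 ± 0.792 CPM per kilobase, followed by STAT3 at 42.5 ± 0.779, JAK1 at 37.1 ± 0.0874, IL6ST at 14.4 ± 0.678 and OSMR at 10.6 ± 0.449 CPM per kilobase (SD, n = 3). JAK2 stood at 4.8 ± 0.222, SOCS3 at 4.21 ± 0.725 and CISH at 4.09 ± 0.419 CPM per kilobase; the SD range of SOCS3 overlapped those of JAK2 and CISH, which did not overlap each other. LIFR stood at 2.24 ± 0.0692 and IL6R, the lowest, at 0.106 ± 0.0699 CPM per kilobase. In TRB T3 libraries the order at the top was the same, with TYK2 at 73.7 ± 0.649, STAT3 at 53.2 ± 2.78, JAK1 at 36 ± 1.29, IL6ST at 15.5 ± 0.7 and OSMR at 8.56 ± 0.382 CPM per kilobase. Below them came CISH at 7.5 ± 0.266, JAK2 at 5.66 ± 0.28, IL6R at 4.24 ± 0.352, SOCS3 at 2.6 ± 0.217 and LIFR at 1.61 ± 0.0598 CPM per kilobase. IL6R thus lay above SOCS3 and LIFR in TRB T3 libraries, and last in EV vehicle libraries.

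**Figure D1:**
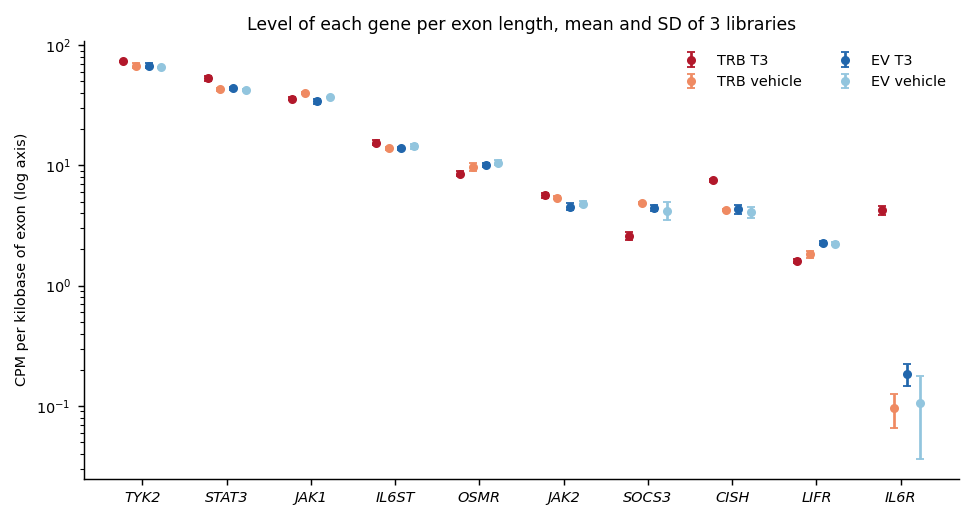
Level of the 10 genes in CPM per kilobase of merged exon (log axis), as mean and SD of 3 libraries, with the groups in the order TRB T3, TRB vehicle, EV T3 and EV vehicle for each gene. TYK2, STAT3 and JAK1 lie highest in all 4 groups, and IL6R averages 4.24 CPM per kilobase in TRB T3 libraries and at most 0.184 in the other groups.

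T3 was first set against vehicle within TRB cells. By edgeR's quasi-likelihood test with Benjamini-Hochberg adjustment over all 14549 genes (adjusted p below 0.05), 8 of the 10 genes changed, against a background of 44.4% of all genes tested. IL6R, CISH, STAT3, IL6ST and TYK2 rose (22.4% of all genes did), SOCS3, OSMR and JAK1 fell (21.9% of all genes did), and LIFR and JAK2 did not pass. IL6R rose 42.6-fold and CISH 1.75-fold, SOCS3 fell to 0.531 of its vehicle level, and the other called genes lay between 0.875 and 1.24 times theirs. The median log2 fold change of the 10 genes was 0.0984, against -0.00168 over all genes tested.

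IL6R (chromosome 1, 154405193 to 154469450, plus strand, hg38), the IL6 binding subunit, had 24.9, 28.0 and 29.3 CPM in TRB T3 libraries, against 0.657, 0.784 and 0.41 CPM in TRB vehicle libraries. In raw counts this was 937 reads over the T3 libraries and 15 over the vehicle libraries, a ratio of 43.5 with a counting interval of 26.2 to 78 (exact, 95%), which covers counting error only. The log2 fold change was 5.41 (edgeR adjusted p = 2.88e-35), and IL6R was higher in every TRB T3 library than in any of the other 9 libraries. The SE that the F statistic gives for it, 0.201, understates its uncertainty. The 95% interval built on that SE is narrower than the counting interval. In EV cells it had 1.25, 1.39 and 0.912 CPM with T3 against 1.2, 0.47 and 0.382 CPM with vehicle, and these groups overlapped. CD14, the leukocyte marker that was tested, also rose with T3 in TRB cells: it averaged 186.5 ± 6.47 CPM in TRB T3 libraries and 19.6 ± 2.1 CPM in TRB vehicle libraries, and 51.3 ± 1.35 CPM in EV T3 libraries and 29.95 ± 2.46 CPM in EV vehicle libraries (SD, n = 3). Unlike IL6R, CD14 also passed for T3 in EV cells (log2 fold change 0.80; edgeR adjusted p = 1.96e-13) and was lower in TRB than in EV cells without T3 (-0.59; 1.2e-06). The summed level of the 6 leukocyte markers ranged from 182 to 194 CPM in TRB T3 libraries and from 17.6 to 21.7 CPM in TRB vehicle libraries, and from 49.8 to 53 CPM in EV T3 libraries and 28.2 to 32.7 CPM in EV vehicle libraries, nearly all of it CD14. PTPRC, the defining leukocyte marker, had 11 reads over the TRB T3 libraries and 1 over the TRB vehicle libraries, and 10 over the EV T3 libraries and 2 over the EV vehicle libraries; CD3E had 0 in both TRB groups. The part of these leukocyte markers in the IL6R result was not tested. In bulk RNA, more cells that express a gene and more RNA per cell cannot be told apart.

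The shared subunit and the other receptors moved far less. IL6ST (chromosome 5, 55935095 to 55994993, minus strand), which encodes gp130, had 151, 143 and 138 CPM in TRB T3 libraries, against 125, 130.5 and 132 CPM in TRB vehicle libraries. The groups did not overlap, and the log2 fold change was 0.16 ± 0.045 (SE; edgeR adjusted p = 0.00292). OSMR (chromosome 5, 38845858 to 38945596, plus strand), the oncostatin M receptor subunit, had 61.7, 63.9 and 58.5 CPM with T3 against 65.2, 69.4 and 76.0 CPM with vehicle, without overlap. It fell by 0.19 on the log2 scale (SE 0.0568; edgeR adjusted p = 0.00386), a call that was lost without TRB vehicle replicate 3 (adjusted p = 0.0785) or when all libraries were thinned to the smallest (0.13). LIFR (chromosome 5, 38474963 to 38608354, minus strand), the subunit for leukemia inhibitory factor, had 19.5, 18.2 and 19.5 CPM with T3 against 20.1, 22.7 and 22.3 CPM with vehicle; the groups did not overlap, but the log2 fold change of -0.19 ± 0.0884 did not pass (SE; edgeR adjusted p = 0.0735), but did without TRB vehicle replicate 1 (0.0487) and with library size as the only scaling (0.0431). In GENCODE, an antisense gene on the opposite strand covers 8.58% of the exon bases of IL6ST, LIFR-AS1 covers 5.3% of those of LIFR and RICTOR 3.19% of those of OSMR. The sources used here do not state the strand setting of the counting, so these values are uncertain by the reads that fall there. IL6ST also has a processed pseudogene, IL6STP1, which is a possible source of shared reads and is among the counted genes. IL6R has a processed pseudogene as well, IL6RP1 on chromosome 9, which is not among the counted genes. The part of either copy in these values was not tested.

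**Figure D2:**
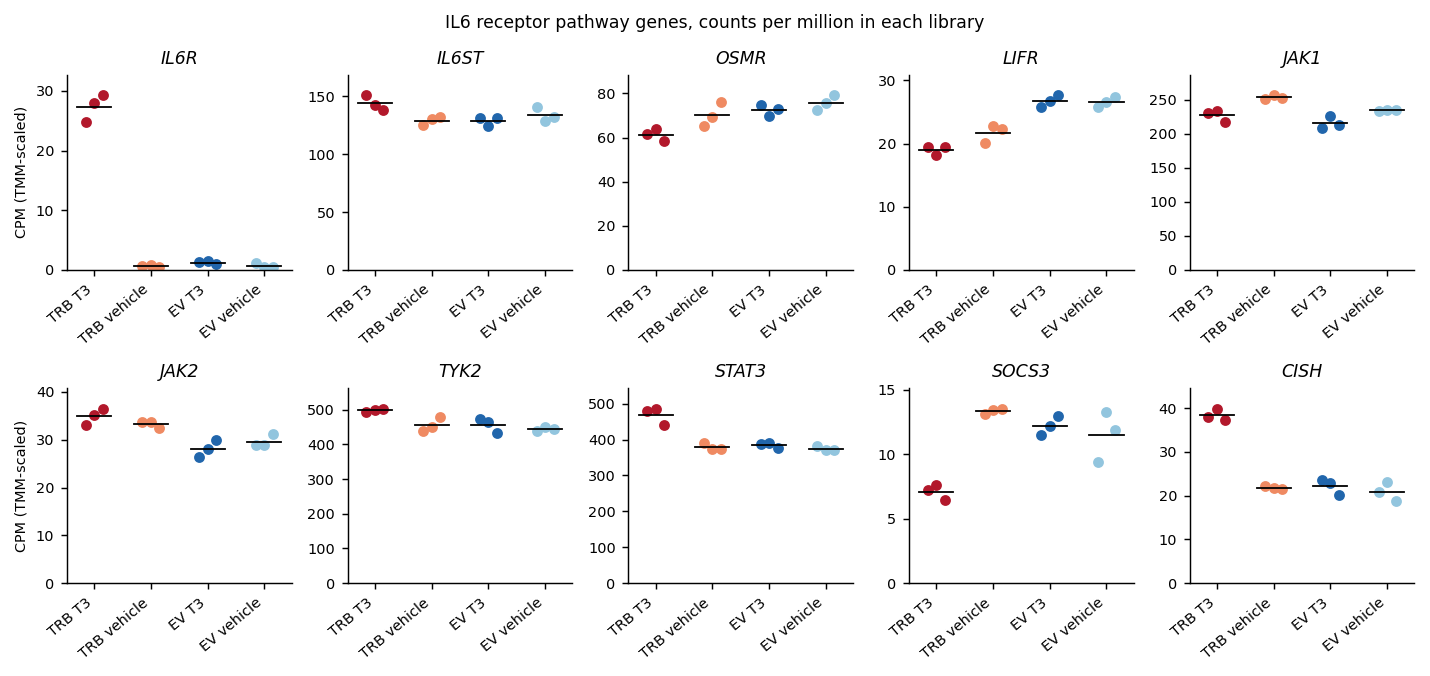
CPM of each of the 10 genes (vertical axes, TMM-scaled, each starting at 0) in the 12 libraries, 1 point per library and a bar at the mean of 3. The IL6R points of the TRB T3 libraries lie between 24.9 and 29.3 CPM and those of the other 9 libraries between 0.382 and 1.39 CPM; SOCS3 is lowest and CISH and STAT3 are highest in TRB T3 libraries.

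The kinases differed little between T3 and vehicle. JAK1 (chromosome 1, 64833229 to 64966504, minus strand), which acts in all gp130 complexes, had 230.5, 233 and 218 CPM in TRB T3 libraries, against 250.5, 256 and 253 CPM in TRB vehicle libraries, without overlap (log2 fold change -0.16 ± 0.0389 SE; edgeR adjusted p = 0.00058). JAK2 (chromosome 9, 4984390 to 5128183, plus strand) had 33.1, 35.2 and 36.5 CPM with T3 and 33.7, 33.8 and 32.4 CPM with vehicle, and the groups overlapped (0.0676 ± 0.0726 SE; edgeR adjusted p = 0.478). The 95% interval for JAK2 reached from -0.0773 to 0.212 on the log2 scale. TYK2 (chromosome 19, 10350529 to 10380676, minus strand) had 494, 499.9 and 503 CPM with T3 against 439, 450.3 and 480.2 CPM with vehicle, without overlap (0.13 ± 0.0384 SE; edgeR adjusted p = 0.00417). So JAK1 fell to 0.897 of its vehicle level and TYK2 rose 1.09-fold in TRB cells. RAVER2, on the opposite strand, covers 0.0633% of the exon bases of JAK1.

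STAT3 and the inhibitors followed. STAT3 (chromosome 17, 42313324 to 42388568, minus strand) had 479, 486 and 440.5 CPM in TRB T3 libraries, against 391, 373 and 373 CPM in TRB vehicle libraries, and so was higher in every T3 library (log2 fold change 0.30 ± 0.0385 SE, 1.24-fold; edgeR adjusted p = 3.99e-10). SOCS3 (chromosome 17, 78356778 to 78360077, minus strand), the inhibitor that binds gp130, had 7.2, 7.63 and 6.46 CPM with T3 against 13.1, 13.4 and 13.5 CPM with vehicle, so every T3 library lay below every vehicle library. It fell by 0.91 on the log2 scale, to 0.531 of its vehicle level (SE 0.128; edgeR adjusted p = 7.98e-09). CISH (chromosome 3, 50606490 to 50611831, minus strand) had 37.9, 39.9 and 37.3 CPM with T3 against 22.2, 21.7 and 21.6 CPM with vehicle, again without overlap, a log2 fold change of 0.81 ± 0.0801 (SE, 1.75-fold; edgeR adjusted p = 7.01e-14). The 2 inhibitors of the same protein family thus moved in opposite directions. Exons of MAPKAPK3 on the opposite strand cover 4.26% of the exon bases of CISH; no annotated exon of another gene overlaps those of STAT3 or SOCS3.

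**Figure D3:**
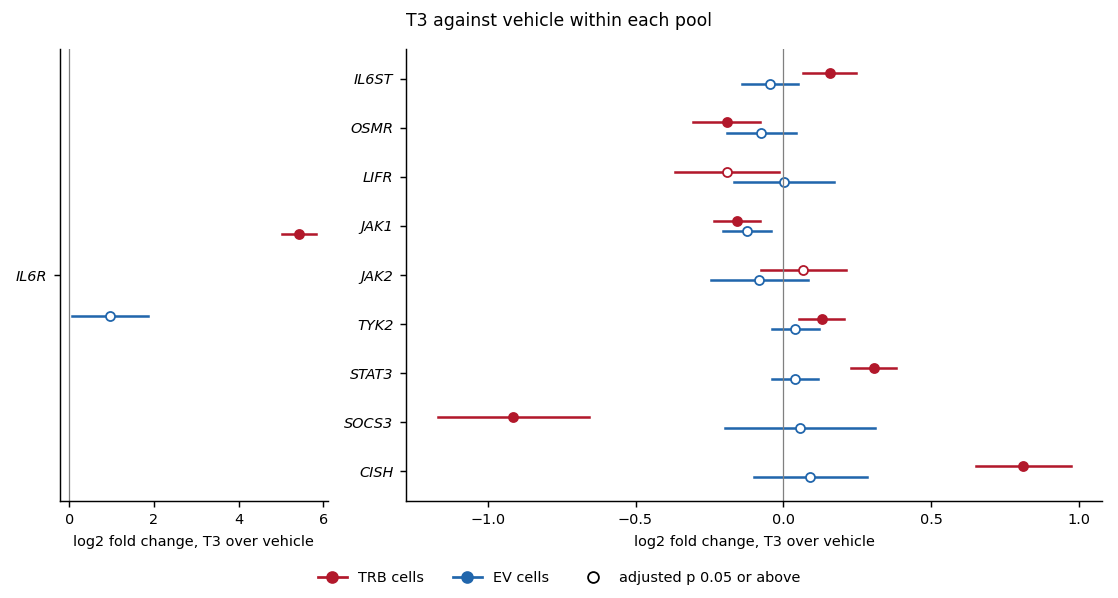
Log2 fold change of T3 over vehicle with its 95% interval for each gene in TRB cells and in EV cells; filled points passed edgeR's adjusted p below 0.05. IL6R, at 5.41 in TRB cells, has an axis of its own, and in EV cells no point is filled. The intervals drawn for IL6R are narrower than its counting intervals and understate its uncertainty.

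Sequences upstream of the genes with the largest changes are shown because STAT binding upstream of CISH and SOCS3 is part of the textbook account of their induction. RefSeq lists promoter windows of 300 bases on GRCh38.p14, from 250 before to 50 after an annotated start, for all 10 genes, with several windows for LIFR, JAK1, JAK2 and SOCS3. These were searched on both strands for TTCNNNGAA, the spaced palindrome that STAT proteins bind, and AGGTCA, the hexamer that thyroid hormone receptors and other nuclear receptors bind, usually in pairs. The 2 motifs did not overlap in any of these windows. The stretches below run 5′ to 3′ on the strand of the gene and are the distal part of each window, the first 150 bases for CISH and SOCS3 and the first 100 for IL6R; capitals mark matches. The IL6R stretch ends at the base before the GENCODE start, and those of CISH and SOCS3 stop short of the RefSeq and GENCODE starts. They are at chr3:50611875-50612024 (minus strand) for CISH, chr17:78361026-78361175 (minus strand) for SOCS3 and chr1:154405093-154405192 (plus strand) for IL6R.
CISH: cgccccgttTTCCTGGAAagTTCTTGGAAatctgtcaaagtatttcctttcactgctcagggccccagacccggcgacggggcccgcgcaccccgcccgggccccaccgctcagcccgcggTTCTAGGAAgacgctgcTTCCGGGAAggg
SOCS3: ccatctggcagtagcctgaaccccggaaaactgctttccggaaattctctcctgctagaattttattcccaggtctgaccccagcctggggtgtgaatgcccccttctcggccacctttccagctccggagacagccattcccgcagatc
IL6R: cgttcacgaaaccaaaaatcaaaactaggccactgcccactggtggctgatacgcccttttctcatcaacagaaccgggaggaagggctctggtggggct

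The CISH window held 4 matches to TTCNNNGAA, which begin at bases -241, -230, -129 and -112 from the RefSeq start, and none to AGGTCA. Of 34796 distinct RefSeq windows, 7.67% held at least 1 match to TTCNNNGAA and 0.0201% held 4 or more; 13.8% held AGGTCA. The windows of IL6R, IL6ST, OSMR, TYK2, STAT3, SOCS3, JAK1 and JAK2 held neither motif, and of 3 LIFR windows 2 held 1 TTCNNNGAA each and 1 held AGGTCA. The RefSeq starts of those LIFR windows lie 12949, 50887 and 51708 bases downstream of its GENCODE start, in that order. The LIFR matches thus lie inside the gene as GENCODE draws it. For JAK1, 1 RefSeq start lies 101242 bases upstream of the GENCODE start, and for JAK2, 1 lies 57142 bases downstream. The SOCS3 stretch precedes a RefSeq start that lies 848 bases upstream of the GENCODE start, and the other SOCS3 window lies downstream of the GENCODE start, so the bases just before the GENCODE start were not searched. A match says only that these letters are present, and no match only that they are not in these windows.

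T3 was then set against vehicle in EV cells, which carry the receptor at their own lower level. Of the 10 genes 0 passed edgeR's test, against a background of 4.54% of all genes tested (2.84% higher and 1.7% lower); 2 had an unadjusted p below 0.05, IL6R and JAK1, and DESeq2 called 0. The median log2 fold change of the 10 genes was 0.0201, against -0.000737 over all genes. IL6R had a log2 fold change of 0.96 ± 0.448 (SE; edgeR adjusted p = 0.26), from 40 reads over the T3 libraries and 11 over the vehicle libraries, a ratio of 1.97 with a counting interval of 0.993 to 4.26. JAK1 had 208, 226 and 213 CPM in EV T3 libraries, against 234, 235 and 235 CPM in EV vehicle libraries. Those groups did not overlap, but the log2 fold change of -0.12 ± 0.0407 did not pass (SE; edgeR adjusted p = 0.0714), and did without EV T3 replicate 2 (0.0397). STAT3 had 387, 390.5 and 376 CPM with T3 and 383, 370.3 and 371 CPM with vehicle, SOCS3 had 11.5, 12.2 and 12.9 CPM and 9.39, 13.3 and 11.9 CPM, and CISH had 23.5, 22.9 and 20.1 CPM and 20.9, 23 and 18.7 CPM, with overlap in all 3 cases. The 95% intervals of the T3 effect in EV cells were -0.0404 to 0.118 for STAT3, -0.198 to 0.308 for SOCS3 and -0.0995 to 0.282 for CISH on the log2 scale.

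Whether the T3 effect differed between TRB and EV cells was tested as an interaction in the same fit. It passed for 5 of the 10 genes, against a background of 23.9% of all genes tested (12.3% higher and 11.6% lower). The difference of log2 fold changes, TRB minus EV, was 4.45 ± 0.7 for IL6R (SE; edgeR adjusted p = 4.43e-07), 0.72 ± 0.126 for CISH (4.89e-06), 0.27 ± 0.0552 for STAT3 (0.000102) and 0.20 ± 0.0654 for IL6ST (0.0152). For SOCS3 it was -0.97 ± 0.179 (SE; edgeR adjusted p = 1.4e-05). The IL6ST call was lost by DESeq2 (adjusted p = 0.0538), with no filter on low counts (0.0521), with library size as the only scaling (0.05002), and without TRB T3 replicate 1 (0.0823), EV vehicle replicate 1 (0.0682) or EV T3 replicate 2 (0.0547). The JAK1 effects of -0.16 in TRB cells and -0.12 in EV cells were not shown to differ (difference -0.0351, 95% interval -0.147 to 0.0773; edgeR adjusted p = 0.723). OSMR, LIFR, JAK2 and TYK2 did not pass either (edgeR adjusted p = 0.261 to 0.359).

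The remaining comparisons set TRB cells against EV cells. With T3, 9 of the 10 genes differed, against a background of 40.7% of all genes tested; IL6R, IL6ST, JAK2, TYK2, STAT3 and CISH were higher in TRB cells (21% of all genes were) and OSMR, LIFR and SOCS3 lower (19.7% were). This comparison shares the TRB T3 libraries with that of T3 in TRB cells, so the 2 are not independent; the comparisons without T3 and of T3 in EV cells share libraries in the same way. IL6R was 4.52 higher on the log2 scale (edgeR adjusted p = 1.39e-36). Its SE from the F statistic, 0.159, understates the uncertainty. From 937 reads over the TRB T3 libraries and 40 over the EV T3 libraries, the ratio was 23.2 with a counting interval of 16.9 to 32.7. LIFR showed 19.5, 18.2 and 19.5 CPM in TRB T3 libraries, against 25.7, 26.8 and 27.6 CPM in EV T3 libraries, a log2 fold change of -0.49 ± 0.079 (SE; edgeR adjusted p = 3.65e-07). JAK2 showed 33.1, 35.2 and 36.5 CPM in TRB T3 libraries, against 26.3, 28.1 and 29.9 CPM in EV T3 libraries, a log2 fold change of 0.31 ± 0.0698 (SE; edgeR adjusted p = 0.000177). SOCS3 stood at -0.78 ± 0.121, CISH at 0.79 ± 0.0738 and STAT3 at 0.28 ± 0.0378 on the log2 scale (SE; edgeR adjusted p up to 1.29e-07). TYK2 at 0.13 ± 0.0379 missed the threshold with counts thinned to equal depth (adjusted p = 0.2), with no filter (0.0616) and without EV T3 replicate 3 (0.102), and OSMR at -0.24 ± 0.0533 missed it thinned (0.06). JAK1 did not pass (0.075 ± 0.0383 SE; edgeR adjusted p = 0.112), but did without EV T3 replicate 2 (0.038).

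Without T3, 1 of the 10 genes differed between TRB and EV cells, against a background of 15.3% of all genes tested (7.86% higher and 7.4% lower). LIFR had 20.1, 22.7 and 22.3 CPM in TRB vehicle libraries, against 25.8, 26.6 and 27.4 CPM in EV vehicle libraries, without overlap (log2 fold change -0.30 ± 0.0935 SE; edgeR adjusted p = 0.0201). That call was lost by DESeq2 (adjusted p = 0.0999) and without TRB vehicle replicate 1 (0.101) or EV vehicle replicates 2 (0.0505) or 3 (0.104). JAK1 had 250.5, 256 and 253 CPM in TRB vehicle libraries, against 234, 235 and 235 CPM in EV vehicle libraries, and just missed the threshold (0.11 ± 0.0413 SE; edgeR adjusted p = 0.0588); it passed in a fit of those groups alone (0.0268) and with library size as the only scaling (0.0385). IL6R had 15 reads over the TRB vehicle libraries and 11 over the EV vehicle libraries, a ratio of 1.05 with a counting interval of 0.451 to 2.53. For SOCS3 the 95% interval of the difference was -0.079 to 0.447, for CISH -0.128 to 0.277 and for STAT3 -0.0616 to 0.0992 on the log2 scale.

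**Figure D4:**
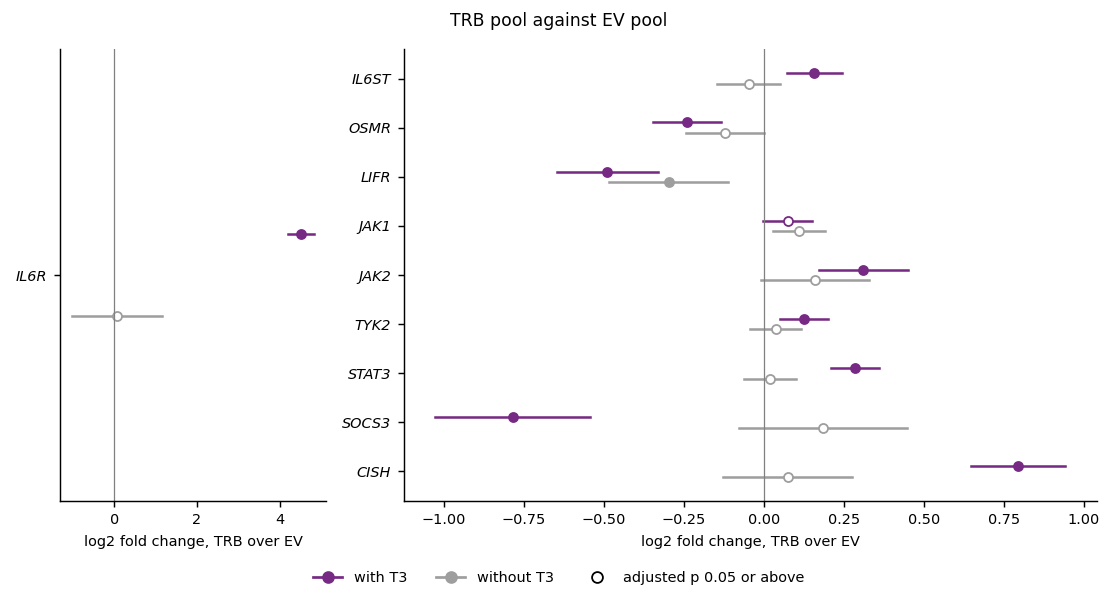
Log2 fold change of TRB over EV cells with its 95% interval for each gene, with T3 and without T3; filled points passed edgeR's adjusted p below 0.05. With T3 all genes but JAK1 are filled, without T3 only LIFR is, and IL6R (4.52 with T3, 0.07 without) has an axis of its own. The intervals drawn for IL6R are narrower than its counting intervals and understate its uncertainty.

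The rest of the pathway was read from gene lists of the same families. Of 8 ligand genes of the IL6 family 4 had enough counts to be tested, and 1 rose with T3 in TRB cells, against 22.4% of all genes tested. LIF, which encodes leukemia inhibitory factor, had 21.6, 20.2 and 18.0 CPM in TRB T3 libraries, against 12.75, 11.65 and 12.6 CPM in TRB vehicle libraries, and rose by 0.70 on the log2 scale (SE 0.102; edgeR adjusted p = 2.94e-08). In EV cells it averaged 28.6 ± 1.19 CPM with T3 and 29.8 ± 2.16 CPM with vehicle (SD, n = 3), so LIF was lower in TRB than in EV cells with either treatment, at -0.52 with T3 and -1.26 without on the log2 scale (edgeR adjusted p = 1.03e-07 and 1.79e-15). The log2 fold changes of T3 in TRB cells for IL11 (0.0782), CNTF (0.45) and CLCF1 (0.37) did not pass (edgeR adjusted p = 0.121 to 0.883). IL6 itself had 32 reads over the 12 libraries, IL27 had 40, CTF1 had 13 and OSM had 2, too few to test.

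Among the other receptors of the family 2 of the 3 tested rose with T3 in TRB cells by edgeR and 1 by DESeq2; by edgeR 22.4% of all genes tested rose. IL27RA, the receptor for interleukin 27, averaged 68.0 ± 3.03 CPM in TRB T3 libraries and 54.5 ± 2.14 CPM in TRB vehicle libraries (log2 fold change 0.32; edgeR adjusted p = 2.34e-06). EV libraries averaged 75.0 ± 1.66 CPM of IL27RA with T3 and 70.6 ± 3.02 CPM with vehicle, above the level of TRB vehicle libraries. Of 4 genes for shedding of cytokine receptors 1 rose and 1 fell, against 22.4% and 21.9% of all genes tested. ADAM10, a protease that can release the IL6R ectodomain, rose by 0.21 (edgeR adjusted p = 1.64e-05) and RHBDF1 fell by 0.34 (9.5e-05), while ADAM17 stood at 0.00139 and RHBDF2 at 0.15 and did not pass. ADAM10 averaged 222 CPM in TRB T3 and 191.7 CPM in TRB vehicle libraries. It averaged 230.5 CPM in EV T3 and 220 CPM in EV vehicle libraries, so the TRB vehicle level was the low one. The interaction passed for 0 of the 4 shedding genes, against 23.9% of all genes tested.

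Of 16 inhibitors and phosphatases 4 rose and 1 fell with T3 in TRB cells, against 22.4% and 21.9% of all genes tested, with a list median of 0.04 on the log2 scale. SOCS6 (0.35), SOCS7 (0.32) and SOCS4 (0.30) rose, as did SOCS5 (0.28), all SOCS family genes like SOCS3 and CISH (edgeR adjusted p up to 0.000272). SOCS6 averaged 40.1 CPM in TRB T3, 31.4 in TRB vehicle, 39.9 in EV T3 and 40.7 in EV vehicle libraries. Its TRB T3 level was thus near that of EV cells. In the same order, SOCS7 averaged 44.8, 35.9, 39.4 and 38.9 CPM and SOCS4 53.3, 43.4, 41.9 and 43.3 CPM. SOCS5 averaged 59.4, 49.0, 63.7 and 51.1 CPM. PIAS3, which encodes an inhibitor of STAT3, averaged 60.2 ± 1.97 CPM in TRB T3 libraries and 92.6 ± 2.93 CPM in TRB vehicle libraries and fell by 0.62 on the log2 scale (edgeR adjusted p = 4.82e-17). SOCS1 (-0.33) and SOCS2 (0.0182) did not pass (edgeR adjusted p = 0.365 and 0.964), nor did the phosphatase genes PTPN1, PTPN2, PTPN6 and PTPN11. In EV cells 1 of the 16 changed, against 4.54% of all genes tested: SOCS5 rose by 0.32 (edgeR adjusted p = 0.000853).

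Of 16 other cytokine receptors that signal through JAKs, 3 rose and 6 fell with T3 in TRB cells, against 22.4% and 21.9% of all genes tested, with a list median of -0.145. DESeq2 called 7 of the 16. PRLR, the prolactin receptor, averaged 223 ± 5.47 CPM in TRB T3 libraries and 136 ± 6.66 CPM in TRB vehicle libraries (log2 fold change 0.72; edgeR adjusted p = 7.51e-24). IL13RA1, a subunit for interleukins 4 and 13, rose by 0.49 (edgeR adjusted p = 8.13e-18), and IL20RB by 0.92 (0.0111), the last a call lost by DESeq2 (0.0844) and without TRB vehicle replicate 1 (0.0962). The interferon receptor genes IFNGR1 (-0.33) and IFNAR1 (-0.18) and the leptin receptor gene LEPR (-0.33) fell (edgeR adjusted p up to 0.000797), as did IL7R, IL20RA and CSF3R; IFNAR1 missed the threshold with thinned counts (0.1).

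Genes known as STAT3 targets in other cells were split. Of 22 tested, 10 rose and 9 fell with T3 in TRB cells, against 22.4% and 21.9% of all genes tested, with a list median of 0.00539. The smallest p-values among those that rose belonged to IRF1, a transcription factor, at 134 ± 2.8 CPM in TRB T3 libraries and 33.6 ± 1.39 CPM in TRB vehicle libraries, to HIF1A, the oxygen-regulated transcription factor subunit, at 485 ± 17.3 and 185 ± 5.79 CPM, and to CCND1, which encodes cyclin D1, at 668 ± 24.8 and 270.5 ± 4.2 CPM. Among those that fell they belonged to LCN2, which encodes the acute phase protein lipocalin 2, at 59.7 ± 2.61 CPM in TRB T3 libraries and 136 ± 2.84 CPM in TRB vehicle libraries, to TIMP1, a metalloproteinase inhibitor, at 15.9 ± 0.262 and 31.1 ± 0.994 CPM, and to CEBPD, an acute phase transcription factor, at 16.8 ± 2.25 and 31.9 ± 2.65 CPM. Their log2 fold changes were 1.995 for IRF1, 1.39 for HIF1A, 1.30 for CCND1, -1.19 for LCN2, -0.96 for TIMP1 and -0.92 for CEBPD, with edgeR adjusted p up to 4.69e-14. In EV cells 5 of the 22 rose and 1 fell, against 2.84% and 1.7% of all genes tested, and IRF1 (0.50), HIF1A (0.19) and CCND1 (0.21) were among those that rose and LCN2 (-0.25) was the one that fell (edgeR adjusted p up to 0.00255). The list was chosen with earlier results of these data known and says nothing of STAT3 activity.

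**Figure D5:**
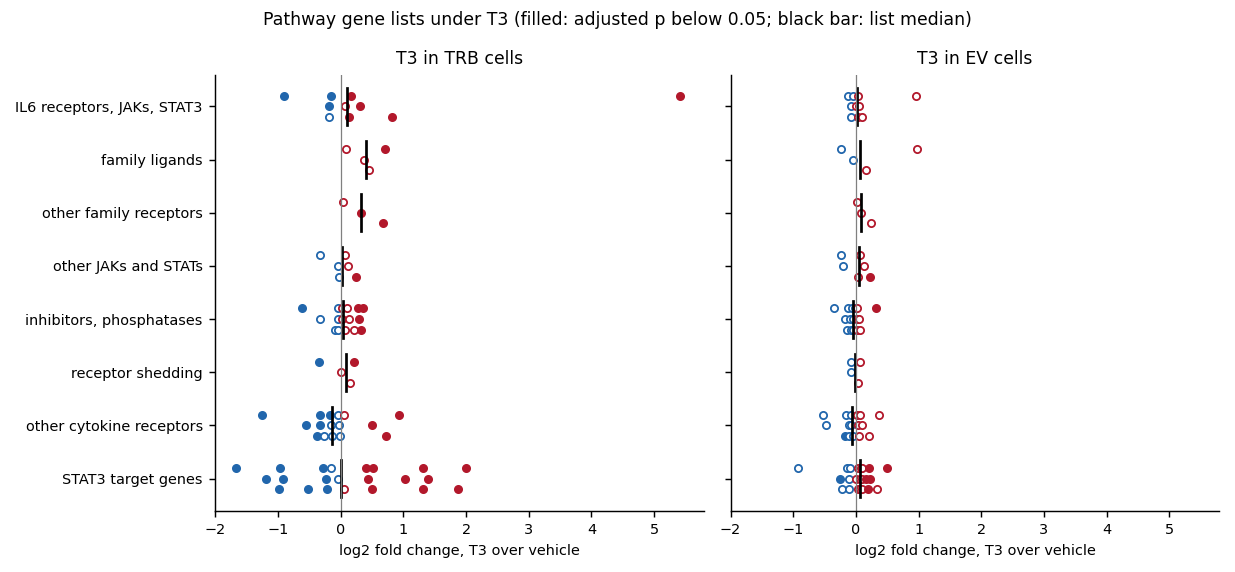
Log2 fold change of T3 over vehicle for every tested gene of the pathway lists, in TRB cells (left) and EV cells (right); filled points passed edgeR's adjusted p below 0.05 and black bars mark list medians. In TRB cells IL6R, at 5.41, lies furthest from 0, and the STAT3 target genes spread to both sides of a median of 0.00539.

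The genes whose log2 CPM followed each member most closely over the 12 libraries were sought among 12546 named genes that averaged at least 1 CPM. For IL6R they were BMF, FAM65A and GSDMC (Pearson's r = 0.994, 0.992 and 0.992), and for STAT3 they included FBLN1 and SLC25A43 (0.977 and 0.975). For SOCS3 they were IRX3, PTMS and ARHGAP11A (0.978, 0.975 and 0.97), and for IL6ST ANKIB1, ARHGAP21 and USP32 (0.926, 0.924 and 0.903). These values describe a shared contrast between the 3 TRB T3 libraries and the other 9, which all these genes have in common: BMF averaged 138 ± 2.76 CPM in TRB T3 libraries, 15.7 ± 1.06 CPM in TRB vehicle libraries, 19.6 ± 1.11 CPM in EV T3 libraries and 14.1 ± 3.66 CPM in EV vehicle libraries, and IRX3 averaged 102 ± 4.36, 154 ± 10.2, 140.3 ± 3.96 and 136.5 ± 10.8 CPM in the same order (SD, n = 3).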

How the data were processed

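Whole-number counts per gene were used as deposited, 1 file per library, made by the authors with CASAVA 1.7, STAR 2.7, HTSeq 0.10 and DESeq2 on build hg38, per the submitters' processing notes; per the labels' protocols, libraries came from the NEBNext Ultra II RNA kit. The sources used here give neither the annotation nor the strand setting. A deposited table of normalized values was not used here. Lines that name no gene (31.9% to 39.2% of alignments) were left out. Genes passed filterByExpr at 10 counts (15 overall). All 12 libraries entered a single TMM-scaled model with a mean for each of the 4 groups, fitted robustly in edgeR 4.0.16 (limma 3.58.1, R 4.3.3) and tested by quasi-likelihood. The SE was obtained by dividing a log2 fold change by the square root of its F statistic, and 95% intervals use the test's own degrees of freedom. Where IL6R has a counting interval, its 95% interval from this SE was narrower and so understates the uncertainty. Alternatives were DESeq2 1.42.0, RLE, library size only, a filter at CPM above 1 in 3 libraries and none, a fit of only the compared groups, a replicate block, thinning to 4241863 counts, and each library left out. Named genes were the 10 members, the ligands, up to 3 called genes per list and direction by smallest p for T3 in TRB cells, and the 3 best correlated genes for 4 members; SOCS5, and genes given to complete a list, were named after their values were seen. Some genes that this rule names are not reported here. Members and lists were chosen with earlier results of these data known. Coordinates and exon lengths are from GENCODE 29 and promoter windows from RefSeq on GRCh38.p14.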

Additional observations from a re-analysis of the deposited data

Results flagged for a closer look

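The T3 effect differed between TRB and EV cells, by the interaction test of edgeR, for 5 of the 10 genes, against 23.9% of all genes tested. The difference of log2 fold changes, TRB minus EV, was 4.45 for IL6R, 0.20 for IL6ST, 0.27 for STAT3, -0.97 for SOCS3 and 0.72 for CISH. With 3 libraries a group, no test for a single outlying library was made.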

How the results depend on the processing

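In TRB cells, IL6R, IL6ST, JAK1, TYK2, STAT3, SOCS3 and CISH passed for T3 with the same direction under all 14 alternatives, and so did IL6R, STAT3, SOCS3 and CISH for the interaction under all 19. The count of the 10 genes called without T3 was 0 by DESeq2 and 2 with library size only or when only the compared groups were fitted, against 1; leaving out single libraries gave 0 to 1 there, 7 to 9 for T3 in TRB cells, 0 to 1 for T3 in EV cells, 8 to 10 for TRB against EV with T3 and 4 to 5 for the interaction. Over all genes, T3 in EV cells called 660 genes, 368 by DESeq2, 396 thinned to equal depth and 275 to 669 with single libraries left out (275 and 396 when EV vehicle replicate 3 or 1 was dropped, and 341 when EV T3 replicate 2 was); TRB against EV without T3 called 2220 and 1430 by DESeq2. The fit of only the compared groups could not be made for the interaction. Signs of effects near 0 that did not pass turned: thinned, LIFR stood at -0.044 for T3 in EV cells and IL6R at -0.0092 for TRB against EV without T3. With single libraries left out, the T3 effect in EV cells ranged from -0.021 to 0.029 for LIFR, -0.033 to 0.16 for SOCS3 and -0.0071 to 0.18 for CISH, the effect of TRB without T3 from -0.27 to 0.56 for IL6R, -0.0042 to 0.059 for TYK2, -0.0099 to 0.033 for STAT3 and -0.027 to 0.16 for CISH, and the T3 effect in TRB cells from -0.23 to 0.23 for IL11. The causes were not tested. Scaling moved the median log2 fold change of all genes tested most for the interaction, to -0.041 with library size only from -0.002 in the main fit. With the replicate number as a block, 8, 0, 9, 1 and 5 of the 10 genes passed for T3 in TRB cells, T3 in EV cells, TRB against EV with and without T3 and the interaction, as without it. Same-numbered libraries did not deviate together over the tested genes (correlations of -0.124 to 0.083). No pairing by number was seen, but the labels do not state whether the numbers mark a shared culture or day. IL6R rested on 3 to 7 reads in each vehicle library, so its fold change is known no more closely than its counting interval. That interval leaves out the spread between libraries.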
